A study of Mus musculus with 13 samples.

Results

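The genes described here belong to 3 signalling pathways that act on mouse pluripotent cells: Lifr, Il6st, Stat3 and Socs3 of the leukaemia inhibitory factor (LIF) pathway, the bone morphogenetic protein (BMP) targets Id1, Id2 and Id3, and the ligand Nodal with its inhibitors Lefty1 and Lefty2. These 10 genes, of the 21883 protein-coding genes on the placed chromosomes of the RefSeq annotation, were chosen by name, and each was followed over its gene body plus 20 kb on each side in the mm10 build. Chromatin immunoprecipitation with sequencing (ChIP-seq) was used to map H3K27ac, a histone acetylation of active promoters and enhancers, and NCoR and SMRT, co-repressors of nuclear receptors that bind and activate the histone deacetylase HDAC3.

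Embryonic stem cells (ESCs) were of strain C57BL/6J, grown without serum in N2B27 medium with LIF and the inhibitors CHIR99021 and PD0325901, and gave H3K27ac, NCoR and SMRT libraries. Mouse embryonic fibroblasts (MEFs), of strain C57BL/6J-OG2, gave 1 H3K27ac library. MEFs of the same strain received viruses for OCT4, SOX2, KLF4 and c-MYC (OSKM), moved to a serum-based ESC medium or a serum-replacement ESC medium with bFGF, both with LIF (the labels do not say which library had which), and gave H3K27ac libraries at days 5, 9 and 13 with either a FLAG control or HDAC3-YF, an HDAC3 mutant without deacetylase activity. NCoR and SMRT were mapped at day 9 in OSKM cultures whose label names neither FLAG nor HDAC3-YF. Strain, cell type and medium differed together between ESCs and the other groups and cannot be told apart, and the cultures were analysed in bulk, where fewer cells of a type and less signal per cell cannot be told apart. Of 13 libraries, 12 gave a peak list and the ESC input was not analysed here. There was 1 library per group, so no value has a replicate error, no difference was tested, and each difference is a description of those libraries. The 3 day-matched pairs of FLAG and HDAC3-YF could give no two-sided exact sign-flip p below 0.25, and were compared by their values.

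LIF binds LIFR, which pairs with the shared receptor chain gp130, encoded by Il6st. The receptor activates STAT3, which enters the nucleus and switches on targets that include its own inhibitor SOCS3, and this route sustains self-renewal of mouse ESCs. BMP signals through SMAD proteins and induces the Id genes, whose products block basic helix-loop-helix factors, whereas Nodal signals through activin receptors and induces Nodal itself and the Lefty genes, whose products hold it back.

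Promoter sequences are shown for 3 of the genes, since the peaks or the letters of the pathways' own motifs bear on them. Each is the 250 bases before the RefSeq start site in GRCm38.p6, 5′ to 3′ on the gene's strand. Socs3 is shown for the STAT letters TTCNNNGAA at positions -154 to -146 before the start and the BMP response letters GGCGCC at -61 to -56, both in capitals (chr11:117969367-117969616, minus strand). Id2 is shown with capitals on the 107 bases that lay under an NCoR peak at day 9 (chr12:25096093-25096342, minus strand). Id3 is shown for the SMAD letters CAGAC, in capitals, at -167 to -163 and, on the opposite strand, at -68 to -64 (chr4:136143572-136143821, plus strand).
Socs3: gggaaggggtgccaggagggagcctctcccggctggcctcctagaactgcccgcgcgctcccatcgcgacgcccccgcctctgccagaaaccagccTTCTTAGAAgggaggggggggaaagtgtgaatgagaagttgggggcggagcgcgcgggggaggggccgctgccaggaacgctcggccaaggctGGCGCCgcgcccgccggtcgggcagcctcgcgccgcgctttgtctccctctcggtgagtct
Id2: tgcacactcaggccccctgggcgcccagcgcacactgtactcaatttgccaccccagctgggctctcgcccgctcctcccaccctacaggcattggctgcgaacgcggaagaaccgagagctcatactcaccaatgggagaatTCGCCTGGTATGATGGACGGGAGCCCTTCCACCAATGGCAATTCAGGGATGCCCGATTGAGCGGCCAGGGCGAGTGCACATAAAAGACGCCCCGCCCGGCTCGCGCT
Id3: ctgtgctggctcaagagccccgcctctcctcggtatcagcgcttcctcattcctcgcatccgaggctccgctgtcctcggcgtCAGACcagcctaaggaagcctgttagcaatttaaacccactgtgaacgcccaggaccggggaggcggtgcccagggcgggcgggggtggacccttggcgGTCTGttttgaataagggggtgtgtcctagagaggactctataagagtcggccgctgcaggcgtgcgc

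A set of 5 motifs was searched on both strands of these 250 bases, and none of the matches overlapped another. STAT letters occurred in 7.02% of all 32851 promoters in the table, GGCGCC in 9.59%, CAGAC in 42.2%, the FOXH1 letters AATNCACA in 3.18% and the E-box CACGTG in 6.02%. Of the 7 genes present in the table, Socs3 alone held the STAT letters. GGCGCC was found in Socs3, in Id2 at -231 to -226 and at both -194 to -189 and -25 to -20 before the first Lifr start site, and CAGAC was found in Id3 and before the second Lifr start site. The promoters of Il6st, Stat3 and Nodal held none of the 5 motifs. The FOXH1 and E-box letters were in none of the 7 genes' promoters. Promoters of Id1, Lefty1 and Lefty2 were not analysed here, and distances for these 3 genes are given from the lower-coordinate annotated end.

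The H3K27ac lists held 14251 to 26591 peaks, with the ESC and MEF lists (25499 and 26591) longer than any OSKM list (14251 to 16944). All intervals were 200 bp wide, so peak counts are the only measure of extent here, and nothing in the sources used gives the read depth. The labelled cell types were checked against markers. Peaks in ESCs outnumbered those in MEFs at all 8 ESC markers (50 against 3 summed), and the reverse held at all 8 fibroblast markers (3 against 37). The OSKM lists held 2 to 6 peaks at the ESC markers, with Tfcp2l1 and Prdm14 at 0 in all 6, and 5 to 19 at the fibroblast markers, with Postn at 0 in all 6. Primitive endoderm markers (5 genes) had 6 peaks in ESCs, 5 in MEFs and 1 to 5 in the OSKM lists, endothelial markers (4 genes) 6, 10 and 2 to 8, and macrophage markers (4 genes) 7, 8 and 4 to 7. Single genes held much of these sums. Pecam1 had 5 endothelial marker peaks in ESCs and 5 in MEFs. Cd68 had 7 macrophage marker peaks in ESCs, 4 in MEFs and 3 to 6 in the OSKM lists. Sox7, Cdh5, Kdr, Ptprc and Adgre1 of these lists were at 0 in all 6 OSKM lists. The part of other cell types in the counts below was not tested.

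ESCs and MEFs had nearly the same number of H3K27ac peaks over the 10 genes, 27 and 28, but divided them differently among these genes. At Nodal, Lefty1 and Lefty2 ESCs had 13 peaks against 5 in MEFs, with 5 against 0 at Nodal itself. At the LIF pathway genes ESCs had 9 against 14, and at the Id genes 5 against 9. The LIF difference was lost with flanks of 5 kb (6 against 6) and with the highest-scoring 50% of each list (7 against 7), and with the 14251 highest-scoring peaks of each list it was 8 in ESCs against 7 in MEFs. Lifr, Nodal, Lefty1 and Lefty2 had more peaks in ESCs, that is 4 of 10 genes against 27.8% of all genes, and Il6st, Stat3, Socs3, Id2 and Id3 had more in MEFs, 5 of 10 against 22.7%. With 14251 peaks from each list Il6st, Stat3 and Socs3 had equal numbers in both cell types, and Id1, Id2 and Id3 had more in MEFs. Id1 had 3 peaks in each when all peaks were counted. The median difference, ESCs minus MEFs, was -0.5 peaks over the 10 genes and 0 over all genes.

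**Figure D1:**
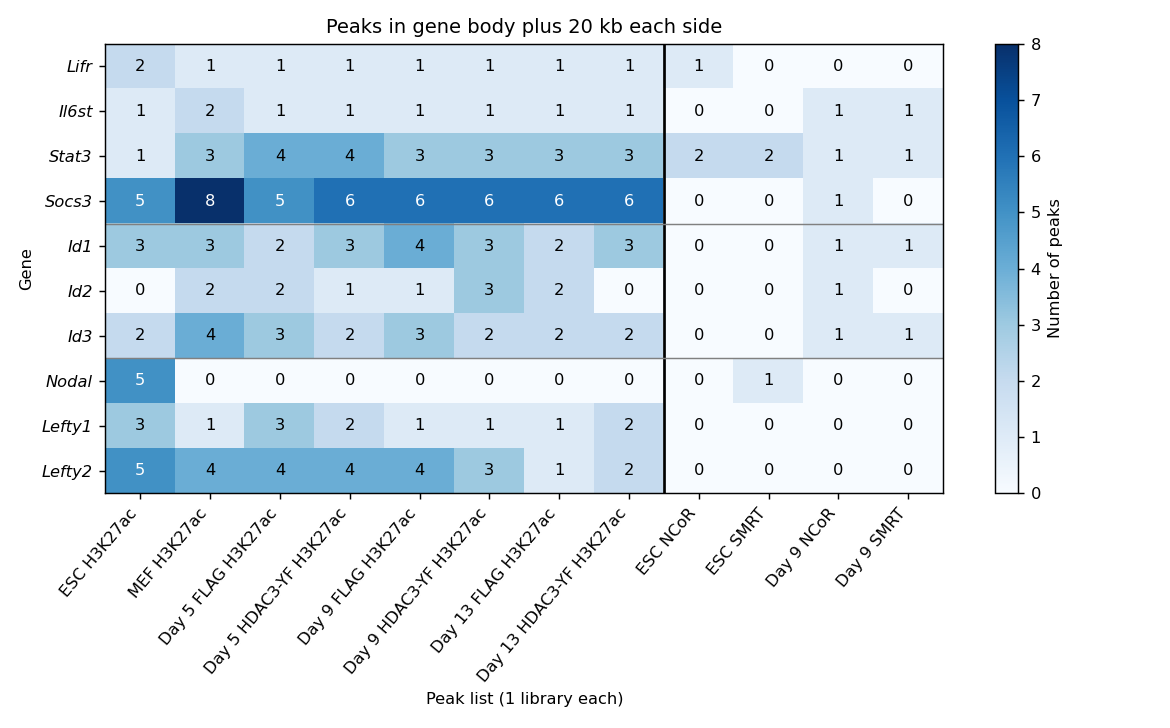
Number of peaks in each gene body plus 20 kb on each side, with the 10 genes as rows and the 12 peak lists (1 library each) as columns. Nodal has 5 H3K27ac peaks in ESCs and 0 in the other 7 lists, whereas Socs3 has 5 to 8 in every H3K27ac list, and NCoR or SMRT peaks at day 9 stand at Il6st, Stat3, Socs3 and the 3 Id genes.

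At least 1 H3K27ac peak lay in the window of 9 of the 10 genes in ESCs (68.0% of all genes) and in MEFs (68.6%). The same held for 9 genes in each OSKM list, against 61.5% of all genes in both day 5 lists, 62.3% and 61.2% at day 9 with FLAG and HDAC3-YF, and 62.5% at day 13 with FLAG, except that 8 genes had one at day 13 with HDAC3-YF (63.3%). Id2 had no peak in ESCs and at day 13 with HDAC3-YF, and Nodal had none in MEFs and in the 6 OSKM lists. In all 8 lists, 8 genes were marked, against 52.8% of all genes. The genes' median count was 1.5 to 2.5 peaks in each list against 1 over all genes, although their windows were shorter (median 45.1 kb against 57.2 kb).

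To compare positions, H3K27ac peaks of the 8 lists whose centres lay within 1 kb of the next were joined into regions. The 10 genes held 51 regions, of which 21 lay at the LIF pathway genes, 12 at the Id genes and 18 at the Nodal pathway genes. In all 8 lists 11 regions were present, and 8 of these were at LIF pathway genes (5 at Socs3 and 1 each at Lifr, Il6st and Stat3). Of the other 3, 1 was at Id3, 1 was in the Lefty2 window, and 1 in the Lefty1 window lay nearest to Tmem63a.

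Lifr (chr15:7090610-7197489, plus strand), the ligand-binding receptor chain, had 2 H3K27ac peaks in ESCs and 1 in each other list. The shared region was at the first start site in all 8 lists. The deposited peak score there, whose ceiling is 200, was 200 in ESCs, 103 in MEFs and 7.91 to 15.5 in the OSKM lists. The score's scale is not stated, so it only places a peak within its own list. The Lifr peak stood at the ceiling in ESCs, percentile 87.8 of that list, and between percentiles 10.9 and 47.7 of the OSKM lists. The ceiling was shared by 24.4% of ESC peaks and 25.9% of MEF peaks, but by 1.67% to 11.9% of peaks in the OSKM lists. The second ESC peak, also at 200, lay 13.6 kb upstream of that start site but inside the annotated gene (chr15:7115921-7116120) and had no counterpart in the other 7 lists.

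Il6st (chr13:112464070-112506860, plus strand), the gp130 receptor chain, had a peak at its start site in all 8 lists. The score was 200 in ESCs and in MEFs and 45.5 to 177 in the OSKM lists, between percentiles 81.6 and 88.0 of those lists. MEFs had a second peak 16.7 kb upstream that no other list had. The receptor partners thus both kept a start-site peak throughout, with Il6st placed high and Lifr lower in the OSKM lists.

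Stat3 (chr11:100886806-100939594, minus strand), the transcription factor of the pathway, had 1 peak in ESCs, 3 in MEFs, 4 in both day 5 lists and 3 in each list at days 9 and 13. Its start-site region was in all 8 lists, with a score of 200 in ESCs, MEFs and all 4 lists of days 5 and 9, and 89.4 (FLAG) and 68.0 (HDAC3-YF) at day 13, percentiles 92.8 and 87.1 of those lists. Of the other 8 regions, 6 were in neither ESCs nor MEFs. The most recurrent of them lay 4.1 kb inside the gene in 4 OSKM lists (the 3 FLAG lists and day 13 HDAC3-YF), and regions 41.0 kb inside the gene and 12.8 kb upstream, nearest to Cavin1, were each in 3. Scores of the OSKM peaks away from the start were 6.93 to 16.2, between percentiles 3.14 and 40.2 of their lists.

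Socs3 (chr11:117966079-117970336, minus strand), the feedback inhibitor, had the most peaks of the 10 genes: 5 in ESCs, 8 in MEFs, 5 and 6 at day 5 with FLAG and HDAC3-YF, and 6 in each list at days 9 and 13. Its 5 regions in all 8 lists lay at 19.6, 5.9 and 0.6 kb downstream of the start and at 6.4 and 17.8 kb upstream, the last nearest to Pgs1. The region 19.6 kb downstream scored 7.35 in ESCs, percentile 5.42 of that list, and stood at the ceiling of 200 in MEFs and at day 9 with FLAG. A sixth region 10.2 kb upstream, also nearest to Pgs1, was in MEFs and in the OSKM lists other than day 5 FLAG. The last 2, 23.2 and 10.9 kb downstream, were in MEFs alone. No H3K27ac interval overlapped the 250 promoter bases printed above, and the nearest ESC interval (chr11:117969143-117969342) lay just inside the gene.

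**Figure D2:**
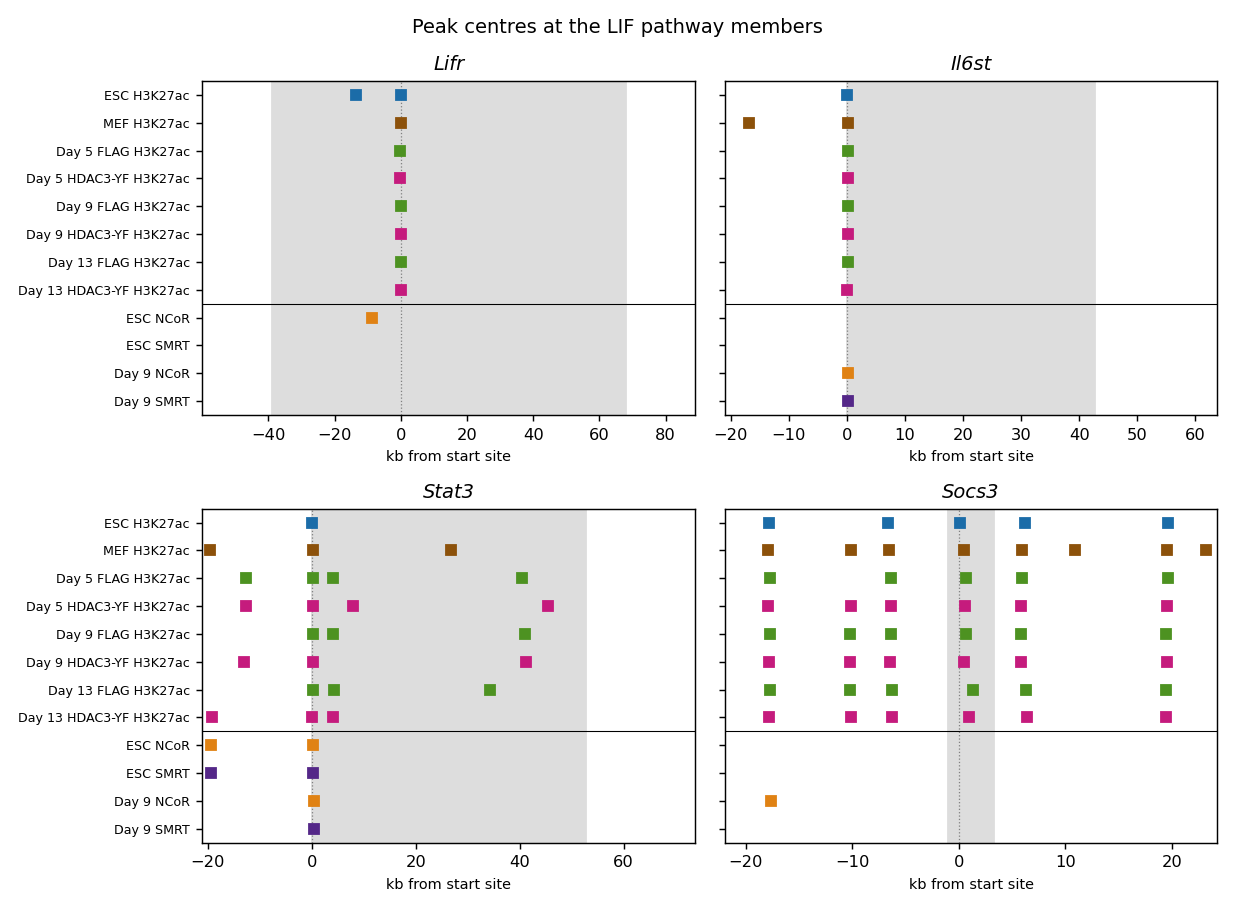
Centres of all peaks at Lifr, Il6st, Stat3 and Socs3, with distance from the start site in kb on the horizontal axis and 1 line per peak list, H3K27ac above the rule and NCoR and SMRT below it. Start-site peaks recur in all 8 H3K27ac lists at Lifr, Il6st, Stat3 and Socs3, and Socs3 shows 5 columns of recurrent peaks.

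In ESCs the Id genes had only H3K27ac peaks that ranked low in the list, or none. Id1 had 3 peaks, Id2 none and Id3 2 there, against a median of 1 over all genes. All 5 were low in the ESC list, with scores of 7.36 to 18.2, between percentiles 5.47 and 36.1. When the same number of highest-scoring peaks was taken from each list (14251), the Id genes had 0 peaks in ESCs, 7 in MEFs and 5 to 8 in the OSKM lists. With the highest-scoring 50% of each list they had 0, 6 and 0 to 5. The lower count in ESCs than in every OSKM list was then lost, while MEFs still had more than ESCs.

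Id1 (chr2:152736251-152737410) had 3 peaks in ESCs, 3 in MEFs, 2 and 3 at day 5 with FLAG and HDAC3-YF, 4 and 3 at day 9, and 2 and 3 at day 13. ESCs and MEFs had equal counts at different positions. A region at the gene itself (0.4 kb from the lower-coordinate end) was in MEFs, where it scored 200, and in all 6 OSKM lists, with scores of 13.4 to 154, but not in ESCs. A region 8.6 kb to the lower-coordinate side was in ESCs and in 5 OSKM lists, all but day 13 FLAG, and not in MEFs, and a region 5.5 kb to the other side was in ESCs, MEFs and 5 OSKM lists, all but day 5 FLAG.

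Id2 (chr12:25093799-25096092, minus strand) had 0 peaks in ESCs, 2 in MEFs, 2 and 1 at day 5 with FLAG and HDAC3-YF, 1 and 3 at day 9, and 2 and 0 at day 13. Its main region lay 3.2 kb upstream, in MEFs and in the OSKM lists other than day 13 HDAC3-YF. At day 9 the FLAG peak there stood at percentile 67.2 of its list, and the HDAC3-YF peaks there at percentiles 21.2 and 26.4. MEFs and day 9 HDAC3-YF also had a peak in the region 0.7 kb inside the gene. No protein-coding neighbour lay in the windows of Id2 and Id3, so their peaks have no nearer gene among those annotated.

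Id3 (chr4:136143822-136145392, plus strand) had 2 peaks in ESCs, 4 in MEFs, 3 and 2 at day 5 with FLAG and HDAC3-YF, 3 and 2 at day 9, and 2 in each list at day 13. The region 0.7 kb inside the gene was in all 8 lists, with scores of 7.78 in ESCs and 200 in MEFs. A region 8.6 kb upstream, also at 200 in MEFs, was in all OSKM lists but day 5 HDAC3-YF and absent in ESCs. A region 3.0 kb upstream was in MEFs, both day 5 lists and day 9 FLAG, and a region 4.3 kb downstream of the start was in ESCs and MEFs and in no OSKM list.

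Nodal (chr10:61417972-61425338, plus strand) was marked in ESCs alone. Its 5 ESC peaks lay 9.0, 4.6 and 1.7 kb upstream and 0.5 and 8.1 kb downstream of the start, and the other 7 lists had 0 in the window. The peak 1.7 kb upstream (chr10:61416214-61416413) scored 200, the one 0.5 kb downstream (chr10:61418414-61418613) scored 77.0, and the other 3 scored 6.68 to 17.7. Only 20 of 21883 genes (0.0914%) had 5 or more peaks in ESCs and none in the other 7 lists, a count chosen after the Nodal values were seen. With equal numbers of peaks per list, Nodal had 2 peaks in ESCs and 0 in every other list.

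Lefty1 (chr1:180935022-180938401) and Lefty2 (chr1:180893108-180899107), neighbours that encode secreted inhibitors of Nodal, were marked in every list within their windows, but partly by peaks of other genes. Lefty1 had 3 peaks in ESCs, 1 in MEFs, 3 and 2 at day 5 with FLAG and HDAC3-YF, 1 in each list at day 9, and 1 and 2 at day 13. Lefty2 had 5 in ESCs, 4 in MEFs, 4 in both day 5 lists, 4 and 3 at day 9 with FLAG and HDAC3-YF, and 1 and 2 at day 13. When only peaks nearest to the gene counted, Lefty1 had 2 in ESCs, 0 in MEFs and 0 to 1 in the OSKM lists, and Lefty2 had 3, 1 and 0 to 1. Counted that way the Nodal pathway genes together had 10 peaks in ESCs, 1 in MEFs and 0 to 2 in the OSKM lists. With all peaks in the windows but 14251 from each list, they had 6 in ESCs, 3 in MEFs and 2 to 6 in the OSKM lists, so the higher count in ESCs than in every OSKM list was then lost for the group, though not for Nodal itself.

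Next to the Lefty genes themselves, 2 ESC regions were shared with OSKM cultures. The region 1.4 kb to the lower-coordinate side of Lefty1 was in ESCs, where it scored 52.6, and in both day 5 lists, at 8.59 and 12.2, and was in neither MEFs nor the later lists. The region 4.2 kb to the lower-coordinate side of Lefty2 scored 200 in ESCs and 60.7 in MEFs and was in 5 OSKM lists, all but day 13 FLAG, with scores of 8.63 to 34.5. At Lefty1 a peak 0.3 kb to the lower-coordinate side was found at day 13 with HDAC3-YF alone. Regions 9.8 kb from Lefty1, 8.8 and 14.5 kb from Lefty2, the last nearest to Sde2, and 0.4 kb inside Lefty2 were in ESCs alone.

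**Figure D3:**
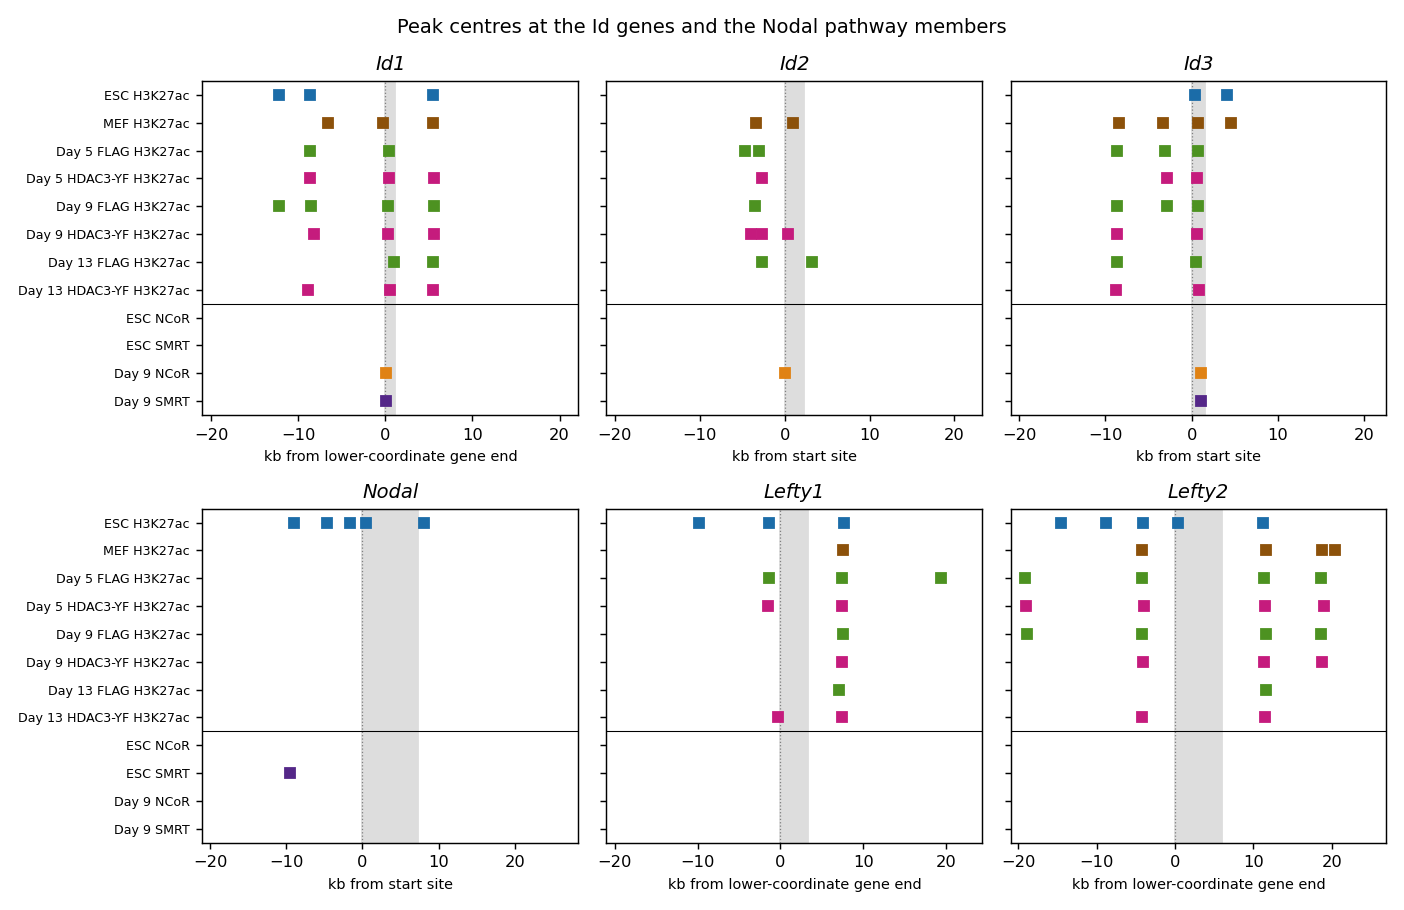
Centres of all peaks at the Id genes, Nodal, Lefty1 and Lefty2, with distance in kb from the start site (Id2, Id3, Nodal) or from the lower-coordinate gene end (Id1, Lefty1, Lefty2) on the horizontal axis and 1 line per peak list. Nodal shows 5 H3K27ac centres in ESCs and none elsewhere, and the Id1 gene region is filled in MEFs and the 6 OSKM lists and empty in ESCs.

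The OSKM cultures held most regions that ESCs and MEFs shared and few of the regions of ESCs alone. Of 51 regions, 14 were in both ESCs and MEFs, 13 in ESCs alone, 14 in MEFs alone and 10 in neither. Of the 14 shared regions, 12 to 13 were present in each OSKM list, and of the 14 regions of MEFs alone, 4 to 6. Of the 13 regions of ESCs alone, 0 to 2 were present in an OSKM list, and the 10 that were in none lay at Nodal (5), Lefty2 (3), Lefty1 (1) and Lifr (1). The 3 that did appear were the Lefty1 region at day 5 and 2 regions at Id1.

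The genes' peaks were also matched by centres within 1 kb and set beside all peaks of the genome. Of the genes' 13 ESC peaks without a MEF peak, 10 were in none of the 6 OSKM lists, against 78.5% of all such ESC peaks, and 0 were in all 6, against 1.20%. Of their 14 ESC peaks with a MEF peak, 10 were in all 6 lists, against 65.6%, and 1 was in none, against 5.61%. Of their 14 MEF peaks with an ESC peak, 11 were in all 6, against 65.8%, and 1 in none, against 5.55%. Of their 14 MEF peaks without an ESC peak, 6 were in none, against 69.1%, and 0 were in all 6, against 2.64%. The Id1 gene region was in all 6 lists as a joined region, but its day 13 FLAG centre lay over 1 kb from the MEF centre. The genes' shares were near the background for the first 3 of these groups of peaks, and 6 of 14 in the last stood below its background share, a gap of few peaks that was not tested. The OSKM lists were shorter than the ESC and MEF lists, and the part of list length in these shares was not tested.

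**Figure D4:**
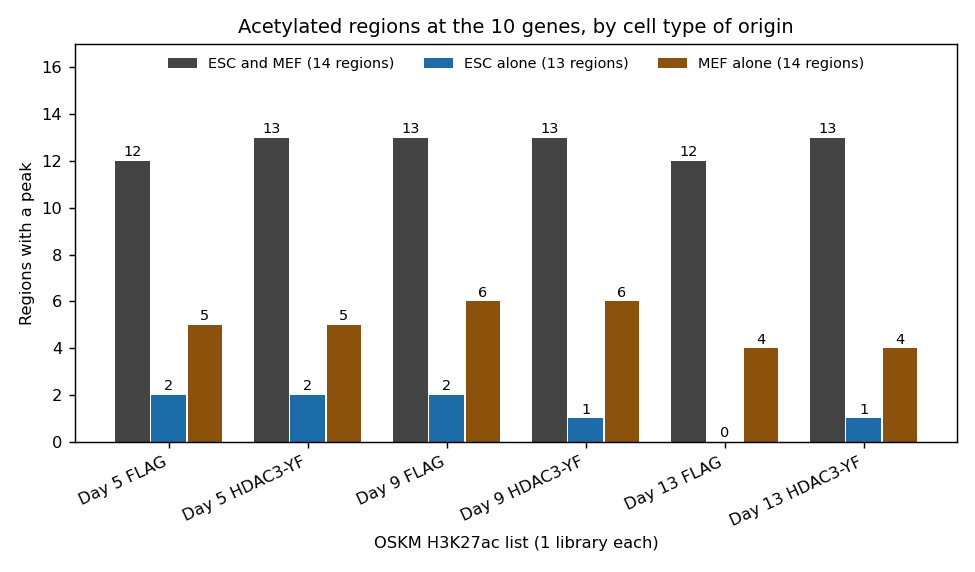
Number of joined H3K27ac regions at the 10 genes that have a peak in each OSKM list (1 library each), as bars from 0, for regions found in ESCs and MEFs (14), ESCs alone (13) and MEFs alone (14). In every list 12 or 13 of the shared regions are present, 4 to 6 of the regions of MEFs alone and 0 to 2 of those of ESCs alone.

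The HDAC3-YF cultures were compared with the FLAG cultures of the same day to ask how a deacetylase-dead HDAC3 bears on acetylation during reprogramming. Summed over the 10 genes, H3K27ac peaks at day 5 numbered 25 in the FLAG list and 24 in the HDAC3-YF list, day 9 had 24 and 23, and day 13 had 19 and 20. On day 5 Socs3 and Id1 had more peaks with HDAC3-YF (2 of 10, against 14.2% of all genes) and Id2, Id3 and Lefty1 fewer (3 of 10, against 11.0%). On day 9 Id2 had more (1 of 10, against 10.7%) and Id1, Id3 and Lefty2 fewer (3 of 10, against 15.0%). On day 13 Id1, Lefty1 and Lefty2 had more (3 of 10, against 15.5%) and Id2 fewer (1 of 10, against 16.4%). None of the 10 genes kept the same sign of difference at all 3 days, which 2.08% of all genes did, and the median difference was 0 at each day over the 10 genes and over all genes.

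Lifr, Il6st and Stat3 had equal counts with FLAG and HDAC3-YF at every day, and Socs3 differed by 1 peak at day 5. That Socs3 peak lay 10.2 kb upstream, nearest to Pgs1, and scored 7.43, percentile 6.75 of the day 5 HDAC3-YF list. When only peaks nearest to Socs3 counted, both day 5 lists had 4. Stat3, despite its equal counts, had its peaks at partly different positions. Its region 4.1 kb inside the gene was present with FLAG and not with HDAC3-YF at days 5 and 9, as was that 41.0 kb inside at day 5. Regions 8.0 and 45.5 kb inside the gene at day 5, and 12.8 kb upstream at day 9, were present with HDAC3-YF and not with FLAG. Differences at Id1, Id3, Lefty1 and Lefty2 were of at most 1 peak, and those at Id2 of 1 or 2. Fibroblast marker peaks differed as well, with 12 in the FLAG list against 19 in the HDAC3-YF list of day 5, 15 against 7 for day 9 and 9 against 5 for day 13. ESC marker peaks numbered 3 against 3, 5 against 5 and 2 against 6 on these days, and primitive endoderm marker peaks 1 against 2, 1 against 1 and 1 against 5. Endothelial marker peaks numbered 6 against 4, 8 against 2 and 3 against 2, and macrophage marker peaks 4 against 4, 4 against 7 and 5 against 4. Of the macrophage marker peaks, Cd68 alone held 3 against 4, 4 against 6 and 5 against 4. The part of the marker differences in those at the 10 genes was not tested.

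NCoR and SMRT peaks of a cell population were merged where they overlapped into co-repressor sites, which numbered 5245 in ESCs and 5972 at day 9. An interval in both lists carries the same signed score in each, the NCoR lists end near -1 (-0.990 in ESCs, -0.979 at day 9) and the SMRT lists near 1 (0.998 and 0.991), so that a site listed for 1 co-repressor passed a limit on a shared score and the other is not shown to be absent there. A site stood at 3 of the 10 genes in ESCs, against 29.7% of all genes, and at 6 on day 9, against 37.1%. Lifr, Stat3 and Nodal had the ESC sites, and Il6st, Stat3, Socs3, Id1, Id2 and Id3 the day 9 sites. Thus all 3 Id genes had a site at day 9 and none in ESCs, Stat3 had sites in both, and the Lefty genes had none in either. A site at day 9 and not in ESCs was found at 5 genes (18.7% of all genes), and 2 the reverse (11.3%). Within 1 kb of a start site, or of either annotated end for the 3 genes without a strand, 1 gene had a site in ESCs (15.0% of all genes) and 4 at day 9 (22.7%).

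The Stat3 promoter was in the NCoR and SMRT lists of both populations, at chr11:100939175-100939374 in ESCs, 0.266 kb downstream of the start, and at chr11:100939088-100939287 at day 9, 0.353 kb downstream. The ESC interval overlapped an H3K27ac peak in all 8 lists. A second ESC site with both co-repressors lay 19.4 kb upstream (chr11:100958826-100959025), nearest to Cavin1, and overlapped H3K27ac peaks of MEFs and day 13 HDAC3-YF and of no other list. At Il6st both co-repressors were found at day 9 at chr13:112464139-112464338, 0.168 kb downstream of the start, and this interval too overlapped H3K27ac peaks in all 8 lists.

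The Socs3 window had a site in the NCoR list only at day 9 (chr11:117986888-117987087, score 1.76), 17.6 kb upstream of the start and nearest to Pgs1, beside the H3K27ac region found there in all 8 lists. In ESCs a site in the NCoR list only lay in the Lifr gene (chr15:7120692-7120891, score 1.14), 8.78 kb upstream of its first start site in the promoter table, with no H3K27ac centre of any list within 1 kb. A site in the ESC SMRT list only lay 9.56 kb upstream of Nodal (chr10:61408311-61408510, score -1.44), and its centre was 603 bp from that of an ESC H3K27ac peak.

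At the Id genes the day 9 sites lay on or beside the genes. Id1 had both co-repressors at chr2:152736265-152736464, 0.113 kb from its lower-coordinate end, overlapping H3K27ac peaks of both day 9 lists, and 7 of the 8 H3K27ac lists had a centre within 1 kb, while the nearest ESC centre was 5303 bp away. Id3 had both at chr4:136144752-136144951, 1.03 kb downstream of the start, with a centre of all 8 lists within 1 kb. Id2 was in the NCoR list only, at chr12:25096000-25096199 with a score of 1.01, just past the limit, across its start site and the capitals of the sequence printed above. No H3K27ac interval overlapped this Id2 peak, and the nearest ESC centre was 120956 bp away. The nearest centres at day 9 were 3514 bp away with FLAG and 433 bp with HDAC3-YF. That HDAC3-YF peak scored 6.77, percentile 0.794 of its list, whose lowest score was 6.69.

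Over the genes' 6 day 9 sites, 5 had a day 9 FLAG H3K27ac centre within 1 kb (85.9% of all day 9 sites), 4 an ESC centre (87.2%) and 6 a MEF centre (87.8%). Over their 4 ESC sites, 2 had an ESC centre within 1 kb (68.1% of all ESC sites) and 2 a MEF centre (60.9%). The site without day 9 FLAG acetylation was that of Id2, and the sites without an ESC centre were those of Id1 and Id2. The genes' 6 and 4 sites are too few to set these shares against the background.

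Other genes of the 3 pathways, 70 in all, were counted the same way. Of 26 other LIF pathway genes, 10 had more H3K27ac peaks in ESCs, 11 more in MEFs and 5 equal numbers. The list had 71 peaks in ESCs and 76 in MEFs. Jak1, the receptor-bound kinase, had 1 peak in ESCs and 7 in MEFs, Osmr, the oncostatin M receptor, had 0 and 3, Il6, a ligand of the same family, had 0 and 2, and Pias3, an inhibitor of STAT3, had 4 and 1. Il6 was named by list order among 5 genes that differed by 2 peaks: Cish (2 and 4) had more in MEFs as well, and Osm (3 and 1), Gab1 and Pim1 (each 4 and 2) had more in ESCs. Co-repressor sites stood at 8 of the 26 genes in ESCs (29.7% of all genes) and at 13 at day 9 (37.1%). Gab1, an adaptor protein, was the gene of this list with more peaks with HDAC3-YF at all 3 days, at 1 with FLAG against 3, 2 and 2 with HDAC3-YF, and its window held 6 ESC co-repressor sites and 2 of day 9.

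Of 24 other BMP pathway genes, 6 had more peaks in ESCs and 12 more in MEFs, and the list had 35 peaks in ESCs, 63 in MEFs and 24 to 29 in the OSKM lists. The named genes with the largest differences were inhibitors and a receptor: Smad7 had 1 peak in ESCs and 9 in MEFs, Smurf1, a ubiquitin ligase, 1 and 9, Smad6 2 and 7, and the receptor Bmpr1b 1 and 5, tied with the receptor Acvr1 at 1 and 5. In the OSKM lists Smad7 had 1 to 4 peaks and Smurf1 1 to 2. The ligands Bmp2, Bmp4 and Bmp7 and the genes Msx2 and Dusp9 had none in any OSKM list. Of these, Bmp7 (3 peaks in ESCs and 0 in MEFs) and Dusp9 (2 and 0) were marked in ESCs alone, like Nodal. Bmp2 had 1 and 1, Bmp4 0 and 1, and Msx2 2 and 1. Co-repressor sites stood at 9 of the 24 in ESCs (29.7% of all genes) and 8 at day 9 (37.1%). The 3 Id genes, with 0 and 3, are too few to be set against this list.

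Of 20 other Nodal pathway genes, 5 had more peaks in ESCs, 5 more in MEFs and 10 equal numbers. The list had 51 peaks in ESCs and 50 in MEFs, without the higher count in ESCs seen at Nodal, Lefty1 and Lefty2. Tdgf1, the Nodal co-receptor also called Cripto, had 5 peaks in ESCs, 0 in MEFs, and 0 in the OSKM lists other than day 9 and day 13 HDAC3-YF, with 1 each. Smad3, a signal transducer, had 4 in ESCs and 15 in MEFs, Tgif1, a repressor of SMAD targets, 8 and 2, and Pcsk6, a protease that processes Nodal, 8 and 5. Acvr1b, the activin receptor, had 1 peak fewer with HDAC3-YF at each of the 3 days (3 against 2). Sites stood at 5 of the 20 genes in ESCs (29.7% of all genes) and 7 at day 9 (37.1%). The median difference, ESCs minus MEFs, was 0 in the LIF and Nodal lists and -0.5 in the BMP list, and the median of HDAC3-YF minus FLAG was 0 in each list at each day.

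Genes with the most similar counts over the 8 H3K27ac lists were sought for the 5 genes with at least 20 peaks in all. Id1 had the same 8 counts as Mecr, and Id3 the same as Zdhhc8, Ranbp1 and Cdkn2a. The nearest to Stat3 were Mgat1, Rpl36al and Tubb1, with differences summing to 2 peaks over the 8 lists. Lefty2 was nearest to Bysl and Med20, also at 2, and Socs3 to Cryab, at 3. These likenesses are descriptions of 8 libraries with small counts.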

How the data were processed

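H3K27ac, NCoR and SMRT were mapped by ChIP-seq in 12 libraries with deposited peak lists, 1 per group, grouped by sample title. The submitters' processing notes name Bowtie2 2.2.0, MACS 1.4 and mm10, without settings. The deposited lists hold 200 bp intervals with a score. The H3K27ac score has a ceiling of 200, its scale is not stated, and it was used only within a list. Where NCoR and SMRT lists share an identical interval (2743 in ESCs, 4003 at day 9), the score is always equal, so it was not used as a height.

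Peaks overlapping a gene body plus 20 kb on each side by at least 1 bp were counted (Python 3.11.15, pandas 2.3.3). Other distances are between centres. Background shares are over 21883 protein-coding genes of RefSeq GRCm38.p6, and all 109 listed genes matched by symbol. The counting was tested on simulated data. The members and gene lists were chosen with earlier results of these data known. All members were named. Per pathway, up to 4 other genes with the largest ESC to MEF difference and up to 3 whose HDAC3-YF lists differed from FLAG in a constant direction over the 3 days were named, and for members with at least 20 peaks up to 3 genes of the most similar counts. Alternatives were flanks of 5 and 50 kb, peaks nearest to the member, the highest-scoring 50% or 14251 peaks of each list, merging within 1 kb, sites with both co-repressors and sites within 1 kb of a start.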

Additional observations from a re-analysis of the deposited data

Results flagged for a closer look

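Differences between HDAC3-YF and FLAG took opposite signs at different days for 4 genes and for the 10 genes summed. With 1 library per group these changes between days were not tested. At Id1 the difference was 1 peak at day 5, -1 at day 9 and 1 at day 13, a change of -2 and then of 2. At Id2 it was -1, 2 and -2, a change of 3 and then of -4. At Lefty1 it was -1 at day 5 and 1 at day 13, and at Lefty2 -1 at day 9 and 1 at day 13, a change of 2 in each case. The sum over the 10 genes was -1 at days 5 and 9 and 1 at day 13, again a change of 2. The Id2 values depended on counting peaks rather than joined regions. More than 1 Id2 peak fell in the joined region 3.2 kb upstream in the day 5 FLAG list, as in the day 9 HDAC3-YF list. By region, both day 5 lists held 1 at Id2. The FLAG and HDAC3-YF lists of day 9 held 1 and 2, and those of day 13 held 2 and 0. The Id2 difference of day 5 was thus lost by region and that of day 9 was smaller.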

How the results depend on the processing

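The sums over the 10 genes were small differences between large shared counts, and several changed sign with the setting. ESCs minus MEFs, -1 as reported, was 2 with flanks of 5 kb (17 against 15) and 2 with peaks nearest to the gene (23 against 21). HDAC3-YF minus FLAG at day 5, -1 as reported, was 2 with the highest-scoring 50% of each list. At day 13 it was 1 as reported, -1 with flanks of 5 kb, -2 with flanks of 50 kb and -2 with the highest-scoring 50%. The 3 genes with an ESC co-repressor site became 5 with flanks of 50 kb (Il6st and Lefty1 added). They became 1 with sites of both NCoR and SMRT and 1 with sites within 1 kb of a start, Stat3 in both cases. The 6 genes with a day 9 site became 8 with flanks of 50 kb (Nodal and Lefty2 added) and 4 with sites of both. For flanks of 50 kb and for sites of both, the share of all genes was not counted, so these changes cannot be set against a background. The cause of these changes was not tested. Of 240 values of single genes, 153 were unchanged, 62 differed by 1 peak and 25 by more. Among those that differed, 30 became 0 and 4 changed sign. Those 4 were Socs3 at day 5, -3 with flanks of 50 kb, and, with the highest-scoring 50%, Id1 at day 5 (-1) and day 9 (1) and Id2 at day 9 (-1). Counts this small say little about stability. Joining regions within 500 bp or 2 kb, chosen after seeing the data, gave 11 regions in all 8 lists and 10 in ESCs and no other list, as reported.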
